A study of Mus musculus with 25 samples.

Results

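The 10 genes Dip2c, Sh2d3c, Runx2, Emx2, Stc2, Cobl, Sec14l3, Fam83d, Gm8817 and Morc2a were followed through 4 stages of mouse oocytes and embryos that lacked or carried maternal Smarca4. They are 10 of 24412 gene symbols in the deposited data. They were selected on their own levels, because knockout lay below wild type in the MII oocyte and again in the PN3 zygote. Those stages are therefore described without a test, and the question addressed is what became of the difference in early and late 2-cell embryos. RNA was sequenced in 25 libraries. The knockout (KO) groups held 2 libraries of MII oocytes, 4 of PN3 zygotes (fertilised eggs with pronuclei), 3 of early 2-cell embryos (E2C) and 3 of late 2-cell embryos (L2C), and the wild-type (WT) groups held 3, 4, 3 and 3. Oocytes came from superovulated females aged 8 to 12 weeks, either Smarca4flox/flox mice carrying Gdf9 Cre on C57BL/6 or B6D2F1 mice, and sperm was injected to make embryos. The Gdf9 promoter drives Cre in oocytes, so the deletion is maternal, and the genotype of the sperm is not given. The female behind each library is not stated, so strain and genotype cannot be told apart, and the number of oocytes or embryos in a library is not given for the RNA assay.

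Smarca4, also called Brg1, is an ATPase that drives the BAF chromatin remodelling complex, which slides and evicts nucleosomes at promoters and enhancers. The mouse oocyte stops transcribing before it matures, so RNA of the MII oocyte was made earlier, while the oocyte grew. After fertilisation that maternal RNA is cleared, and the embryo's own transcription begins weakly in the zygote and broadly in the late 2-cell embryo. A gene's RNA at MII is thus maternal, and at L2C it can be maternal remnant, new transcript or both, which these libraries cannot separate. In bulk samples like these, fewer cells with a transcript and less RNA per cell cannot be told apart either.

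The members have unlike roles. Runx2 is a Runt-domain transcription factor required for bone, and Emx2 a homeobox transcription factor of forebrain and urogenital development. Sh2d3c is an SH2-domain adaptor that binds Cas scaffold proteins, and Stc2 encodes stanniocalcin 2, a secreted glycoprotein that inhibits pappalysin proteases. Cobl nucleates actin filaments, Fam83d sits on the mitotic spindle and recruits casein kinase 1 alpha there, and Sec14l3 belongs to a family of lipid-binding proteins. Morc2a is an ATPase that works with the HUSH complex in gene silencing, Dip2c belongs to the disco-interacting protein 2 family, and Gm8817 is annotated as a long intergenic noncoding RNA.

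Promoters are shown for the 3 genes whose KO and WT libraries were apart at all 4 stages, Dip2c, Sh2d3c and Runx2, and for Fam83d, the member that lay on the other side at L2C. Each sequence runs 5′ to 3′ on the gene's own strand, from 250 bases before the start to 50 bases after it, as given by RefSeq for GRCm38.p6. The windows are chr13:9276275-9276574 (plus strand) for Dip2c, chr2:32727439-32727738 (plus) for Sh2d3c, chr17:44814578-44814877 (minus) for Runx2 and chr2:158767849-158768148 (plus) for Fam83d. The Sh2d3c window lies inside the gene's annotated span, which begins at 32721055, so its start is an internal one. Capitals mark the motif TATAAA (the TATA box), the motif CCAAT, the motif GGGCGG (a GC box) and the motif TGTGGT (the core that RUNX proteins bind), read on both strands with overlapping matches counted.
Dip2c: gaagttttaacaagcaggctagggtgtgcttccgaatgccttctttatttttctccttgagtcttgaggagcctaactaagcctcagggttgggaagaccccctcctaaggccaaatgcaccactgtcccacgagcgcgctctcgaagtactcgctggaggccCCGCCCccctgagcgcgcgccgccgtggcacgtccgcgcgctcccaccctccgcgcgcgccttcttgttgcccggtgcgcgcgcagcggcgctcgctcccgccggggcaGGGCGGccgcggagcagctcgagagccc
Sh2d3c: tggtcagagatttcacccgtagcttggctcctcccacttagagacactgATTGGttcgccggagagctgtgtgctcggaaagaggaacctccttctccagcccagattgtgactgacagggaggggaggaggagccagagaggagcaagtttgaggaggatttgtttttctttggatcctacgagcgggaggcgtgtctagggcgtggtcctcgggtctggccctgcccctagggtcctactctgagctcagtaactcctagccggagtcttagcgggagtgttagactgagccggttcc
Runx2: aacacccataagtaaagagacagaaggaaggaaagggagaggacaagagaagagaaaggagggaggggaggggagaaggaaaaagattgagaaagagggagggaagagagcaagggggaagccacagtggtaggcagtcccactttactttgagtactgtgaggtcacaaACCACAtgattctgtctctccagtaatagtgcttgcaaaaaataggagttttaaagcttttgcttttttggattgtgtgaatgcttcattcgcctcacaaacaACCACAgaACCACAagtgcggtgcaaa
Fam83d: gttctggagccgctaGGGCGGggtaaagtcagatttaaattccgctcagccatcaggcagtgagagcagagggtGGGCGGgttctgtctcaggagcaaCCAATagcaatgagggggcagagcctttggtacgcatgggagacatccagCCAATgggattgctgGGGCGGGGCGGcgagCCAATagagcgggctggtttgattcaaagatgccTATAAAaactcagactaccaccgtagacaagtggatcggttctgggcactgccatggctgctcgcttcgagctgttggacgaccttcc
The 4 promoters share none of these motifs across the whole set. Dip2c had 33 CpG dinucleotides and 2 GC boxes, Sh2d3c 12 CpG and 1 CCAAT, and Fam83d 14 CpG with 1 TATAAA, 3 CCAAT and 4 GC boxes. Runx2 had 2 CpG and 3 copies of the RUNX core, a motif held by 12.2% of 11510 promoters of genes expressed here and by 16.8% of all 32851 promoters of that length. Of 12 promoters of the 10 members, 1 held TGTGGT, 6 held CCAAT, 5 held GGGCGG and 3 held TATAAA. The shares among expressed genes were 38.9% for CCAAT, 60.8% for GGGCGG and 7.38% for TATAAA, and over all promoters 37.4%, 35.7% and 13.6%. The median CpG number was 13 in the members' promoters, against 20 for expressed genes and 7 for all promoters. These matches describe the letters in the windows and no more.

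Values are FPKM, in which fragments are divided by transcript length and library total, rescaled between libraries, and log2 differences are KO minus WT on log2(scaled FPKM + 1), which understates the change of low genes. Read depth is unknown. The FPKM sum per library was 216308 to 252440, and 9345 genes were above 0 in WT E2C replicate 2, against 13585 to 16698 in the other 24 libraries. Smarca4 (chromosome 9) separated the genotypes at every stage, with means of 0.220 in KO and 28.0 in WT oocytes, 0.315 in KO and 31.1 in WT zygotes, 2.57 in KO and 28.4 in WT at E2C, and 22.0 in KO and 71.0 in WT at L2C. All 10 oocyte markers were present at MII, summing to 2921 to 3003 in KO and 2641 to 2723 in WT. Of 22 cumulus and granulosa markers 1 reached an FPKM of 1 at MII, Cyp19a1 (means of 4.99 in KO and 5.98 in WT). Another 10, among them Foxl2, Amhr2 and Ptx3, were at 0 in every MII library. The sum of the 22 was 5.89 to 6.20 in KO and 6.32 to 7.52 in WT, most of it Cyp19a1. Blood and immune markers summed to 1.30 to 1.40 in KO and 1.26 to 1.54 in WT, and the sperm and testis list to 67.7 to 75.4 in KO and 64.6 to 68.0 in WT, nearly all of it Odf2, with Tnp2, Smcp and Spem1 at 0 in every MII library. At L2C the oocyte markers summed to 737 to 978 in KO and 368 to 865 in WT, with Oosp1 the highest (means of 352 in KO and 179 in WT). The cumulus and granulosa list summed to 4.77 to 8.38 in KO and 1.30 to 8.27 in WT at E2C, and to 14.1 to 15.2 in KO and 14.4 to 39.0 in WT at L2C, with Amhr2 the highest (means of 6.39 in KO and 11.6 in WT). The part these lists play in the members' values was not tested. The labels do not tie replicates to separate females, and p-values therefore reflect the spread among these libraries alone, which may be technical.

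At MII and PN3 the members were lower in KO, as chosen. Their summed level was 17.8 to 22.8 in KO and 43.7 to 46.9 in WT at MII, and 18.0 to 19.9 in KO and 45.8 to 52.8 in WT at PN3. All 10 were below WT without overlap at both stages, an order met by 20.8% of 12086 expressed genes at MII, by 5.1% at PN3 and by 2.09% (252 genes) at both. None was above, an order met by 19.6% of genes at MII and by 5.08% at PN3. The members were chosen for lower KO levels at these stages, so these counts largely follow from that choice. Their median log2 difference was -0.87 at MII and -0.88 at PN3, with all expressed genes at 0.00 at both. The difference at MII ran from -1.67 (Gm8817) and -1.48 (Cobl) to -0.49 (Runx2), and at PN3 from -2.05 (Emx2) and -1.72 (Gm8817) to -0.46 (Cobl). The 10 are not the complete set with this pattern. Of 25 genes ordered this way with differences at least as low as the weakest member's at each stage, 14 were neither members nor Smarca4, and they include Wwc1 (-1.13 at MII and -0.94 at PN3) and Irf8 (-0.81 and -0.69). Among members the smallest weaker difference was that of Cobl at PN3, and just outside lay Hnrnpa1 (-0.44 and -0.59) and Sptssa (-0.64 and -0.44).

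**Figure D1:**
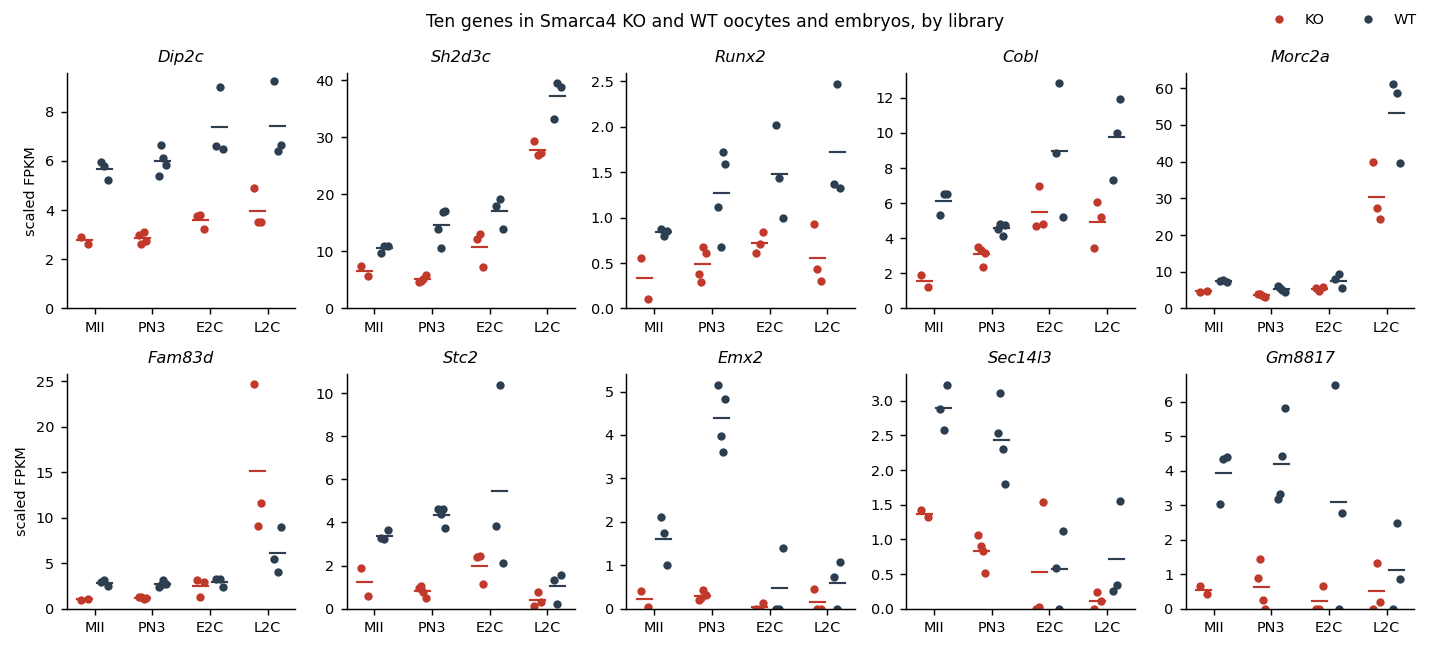
Scaled FPKM of each of the 10 genes (vertical axis, linear, own scale per gene) in every KO (red) and WT (dark) library at MII, PN3, E2C and L2C, with a line at each group mean. At MII and PN3 the KO points lie below the WT points in all 10 panels, and the genes were chosen for lower KO levels there. At L2C the KO points of Fam83d lie above.

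At the 2-cell stages the members kept a lower average in KO, but library order was kept by fewer of them and no single difference passed the test. The log2 difference was negative for 10 of 10 at E2C and for 9 of 10 at L2C, Fam83d being the exception. KO libraries were all below WT for 3 of 10 members at E2C (Dip2c, Sh2d3c and Runx2), where 4.37% of all expressed genes were so ordered, and above for 0, against 5.38%. At L2C they were all below for 5 of 10 (the same 3 with Cobl and Sec14l3), against 11.4% of all genes, and all above for 1 (Fam83d), against 8.75%. The median over the 10 was -0.54 at E2C and -0.52 at L2C, against 0.05 and -0.05 over all expressed genes. The difference was tested with limma over the 12 libraries of the 2-cell stages, with p-values adjusted over 11662 genes. Emx2 was too low at these stages to be tested, and the other 9 members were. At E2C 0 of 9 were called, where 0.00857% of all genes were (1 gene, Smarca4), and 2 members (Dip2c and Sh2d3c) and 732 genes had an unadjusted p under 0.05. At L2C 0 of 9 were called, where 0.0% of all genes were, and 5 members (Dip2c, Morc2a, Fam83d, Runx2 and Cobl) and 1845 genes had an unadjusted p under 0.05. Of these 5, Runx2 entered the test only through WT. There 5 libraries of the 2-cell stages reached 1, and 0 KO libraries did. Its p is thus no support, and its part in the order counts above has the same limit. A single library bore on the count at L2C. Without WT L2C replicate 3, 1367 genes were called, and 2 members with them, Morc2a lower (-0.98) and Fam83d higher (1.39).

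The libraries varied more at the 2-cell stages, with a median SD within a group of 0.35 (log2) at E2C and 0.32 at L2C, against 0.08 at MII and 0.13 at PN3. In simulated data of this size, limma recovered 29.6% of genes changed 2-fold at E2C and 28.6% at L2C, so a missed threshold does not show that a member did not differ. Library order at E2C also depended on WT E2C replicate 3. Leaving it out put 7 of 10 members below WT without overlap, but 10.6% of all genes were then so ordered. Without KO E2C replicate 3 the count stayed at 3, with 9.7% of all genes. Leaving out both, a choice made after seeing the data, also gave 7, with 16.3% of all genes.

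**Figure D2:**
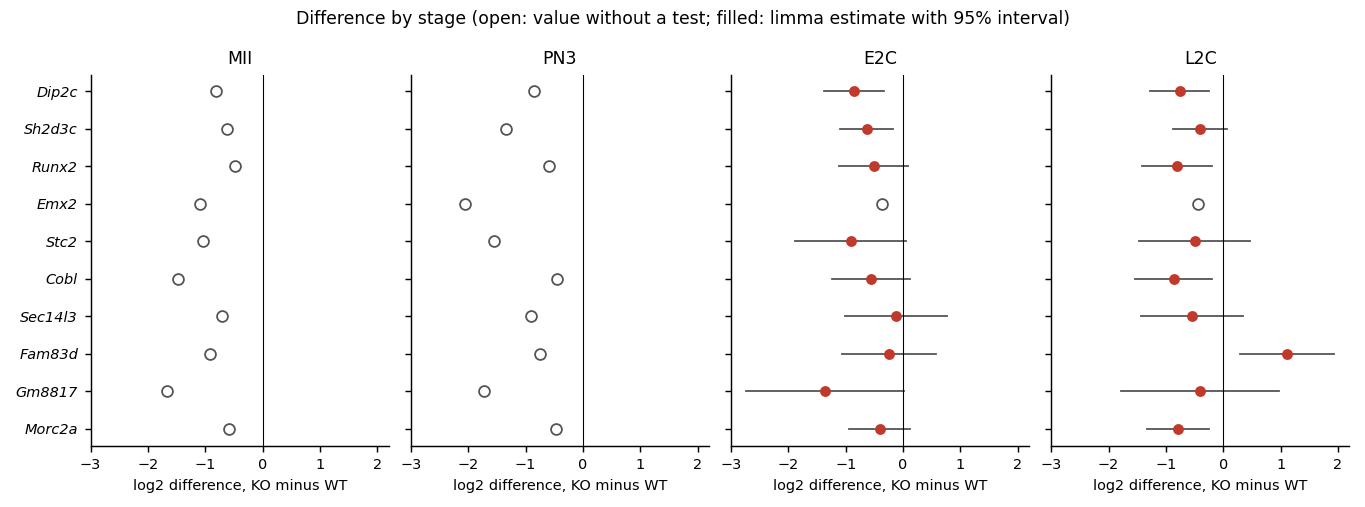
Log2 difference, KO minus WT, on log2(scaled FPKM + 1) (horizontal axis) of each of the 10 genes (vertical axis), with a panel for each of the 4 stages. Open points are values without a test, and filled points are limma estimates with 95% intervals. Dip2c stays between -0.86 and -0.76, Emx2, Stc2, Sec14l3 and Gm8817 come nearer to 0 after PN3, and Fam83d passes to 1.11 at L2C.

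Dip2c held the steadiest difference. The gene lies on chromosome 13 (9276528 to 9668928, plus strand, GRCm38), and the ratio of its KO mean to its WT mean was 0.489 in oocytes, 0.476 in zygotes, 0.487 in early and 0.535 in late 2-cell embryos. It stood at 2.92 and 2.62 in KO oocytes, against 5.96, 5.81 and 5.22 in WT oocytes. Zygotes held 2.99, 2.61, 3.12 and 2.72 in KO, against 5.40, 6.65, 6.13 and 5.85 in WT. The highest KO zygote was thus far below the lowest WT zygote. Early 2-cell embryos held 3.74, 3.80 and 3.22 in KO, against 6.61, 8.98 and 6.50 in WT. Late 2-cell embryos held 4.90, 3.51 and 3.51 in KO, against 9.23, 6.41 and 6.66 in WT. The groups stayed apart at both stages, with a log2 difference of -0.86 ± 0.24 (SE) at E2C (limma adjusted p = 0.62, unadjusted 0.00336) and -0.76 ± 0.24 at L2C (limma adjusted p = 0.209, unadjusted 0.00744). The change of that difference between E2C and L2C was 0.10, with a 95% interval of -0.63 to 0.83. Neither genotype changed its Dip2c level between E2C and L2C by the test, the change being 0.11 in KO (limma adjusted p = 0.749) and 0.01 in WT (limma adjusted p = 0.978).

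Sh2d3c (chromosome 2, 32721055 to 32755512, plus strand) was the most abundant member after Morc2a at L2C and differed most at PN3. Its RNA was at 7.43 and 5.68 in KO oocytes, against 9.80, 10.9 and 10.9 in WT oocytes. In zygotes it was at 4.61, 4.77, 5.14 and 5.82 in KO, against 13.9, 10.7, 17 and 17.1 in WT. The mean in KO zygotes was 0.347 of that in WT zygotes. Early 2-cell embryos were at 12.2, 13 and 7.19 in KO, against 18.0, 19.2 and 14.0 in WT. Late 2-cell embryos were at 29.3, 27.0 and 27.3 in KO, against 33.2, 39.5 and 38.9 in WT. KO libraries remained below WT at both stages while the ratio of the means was 0.636 at E2C and 0.748 at L2C. The log2 difference was -0.64 ± 0.22 (SE) at E2C (limma adjusted p = 0.726, unadjusted 0.0112) and -0.40 ± 0.22 at L2C (limma adjusted p = 0.378). The separation at E2C depended on the scaling, since the libraries overlapped with FPKM as deposited and with TPM.

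Runx2 (chromosome 17, 44495987 to 44814797, minus strand) was low in every library. Oocytes held 0.558 and 0.104 in KO, against 0.871, 0.799 and 0.853 in WT. Its level was 0.379, 0.289, 0.672 and 0.612 in KO zygotes, against 1.12, 0.681, 1.72 and 1.58 in WT zygotes, so that the highest KO library and the lowest WT library nearly met. The early 2-cell libraries held 0.610, 0.705 and 0.840 in KO, against 2.01, 1.43 and 0.998 in WT. The late 2-cell libraries held 0.932, 0.431 and 0.298 in KO, against 1.37, 2.47 and 1.33 in WT. No KO library reached a level of 1 at any stage, and 8 of the 13 WT libraries did. The difference was -0.51 at E2C (limma adjusted p = 0.809) and -0.80 at L2C (limma adjusted p = 0.224, unadjusted 0.013). Dip2c, Sh2d3c and Runx2 were among 8 genes of 12086 (0.0662%) whose KO libraries were all below WT at all 4 stages. The members were chosen for lower KO levels at MII and PN3, where 252 genes had this order. The share of all genes is therefore not a fair base for them. Runx2 counted as expressed only through WT, and with FPKM as deposited or TPM 2 members were below at all 4 stages.

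Cobl and Morc2a lie on chromosome 11 and were lower on average in KO at each stage. Cobl, the actin nucleator (12236608 to 12464960, minus strand), was 1.57 ± 0.521 in KO oocytes and 6.12 ± 0.684 in WT oocytes (SD, n = 2 and 3), and 3.08 ± 0.509 in KO zygotes and 4.56 ± 0.326 in WT zygotes (n = 4 each). At E2C its libraries overlapped, at 4.68, 6.97 and 4.83 in KO, against 8.85, 12.8 and 5.23 in WT. At L2C they were apart again, at 3.47, 6.04 and 5.22 in KO, against 7.31, 9.99 and 11.9 in WT. The KO mean at L2C was 0.504 of the WT mean, a log2 difference of -0.86 ± 0.31 (SE) with a limma adjusted p of 0.231 (unadjusted 0.0159).

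Morc2a (3649191 to 3690477, plus strand) was the most abundant member at L2C. Its level was 4.66 ± 0.113 in KO oocytes and 7.52 ± 0.327 in WT oocytes (SD, n = 2 and 3), and 3.58 ± 0.373 in KO zygotes and 5.38 ± 0.677 in WT zygotes (n = 4 each). Levels at E2C were 5.47, 4.78 and 5.88 in KO, against 7.91, 9.46 and 5.46 in WT, so that WT replicate 3 fell among the KO libraries. At L2C it was at 39.8, 27.3 and 24.4 in KO, against 61.2, 58.8 and 39.7 in WT. The highest KO library and the lowest WT library met there (with FPKM as deposited all KO libraries were below WT), and the difference was -0.79 ± 0.25 (SE), with a limma adjusted p of 0.209 (unadjusted 0.00723). Morc2a rose between E2C and L2C in both genotypes, by 2.28 in KO (limma adjusted p = 1.51e-05) and by 2.66 in WT (limma adjusted p = 2.85e-06). The difference between these rises was -0.38, with a 95% interval of -1.14 to 0.38.

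Fam83d (chromosome 2, 158768093 to 158786637, plus strand) was the member whose order turned. It was at 1.01 and 1.07 in KO oocytes, against 2.91, 3.16 and 2.51 in WT oocytes. In KO zygotes it was at 1.28, 1.32, 1.13 and 1.19, against 2.42, 2.58, 3.21 and 2.76 in WT zygotes. The groups mixed at E2C, at 3.13, 1.27 and 2.97 in KO, against 3.33, 3.25 and 2.39 in WT. Without KO E2C replicate 2 the difference there was 0.03, against -0.25 with it. At L2C the libraries were apart the other way, at 24.7, 9.11 and 11.6 in KO, against 5.49, 3.99 and 8.99 in WT. The KO mean was 2.46 times the WT mean, and the lowest KO library lay just above the highest WT library. The KO mean was raised by replicate 1 (24.7), and the medians were 11.6 in KO and 5.49 in WT. The log2 difference at L2C was 1.11 ± 0.38 (SE), with a 95% interval of 0.30 to 1.93 and a limma adjusted p of 0.218 (unadjusted 0.011). The difference at L2C minus that at E2C was 1.36 (limma adjusted p = 0.439, unadjusted 0.0239), and 0 of 9 members and 0.0% of all genes were called in that comparison, with 1290 genes at an unadjusted p under 0.05. Between E2C and L2C Fam83d rose by 2.15 in KO (limma adjusted p = 0.000576), and in WT the change was 0.79 (limma adjusted p = 0.0922).

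Emx2, Sec14l3 and Gm8817 were at low levels in most 2-cell libraries of both genotypes, reaching 1 in 2, 3 and 4 of the 12, so the comparison had little to rest on, and Stc2 reached 1 in all 6 libraries at E2C but in 2 of 6 at L2C. Emx2 (chromosome 19, 59458372 to 59465357, plus strand) showed the largest difference at PN3, at 0.192, 0.241, 0.432 and 0.325 in KO zygotes, against 5.16, 3.99, 3.61 and 4.82 in WT zygotes. In oocytes it was at 0.398 and 0.033 in KO, against 2.10, 1.74 and 1.0 in WT. At E2C it was listed at 0, 0 and 0.134 in KO, against 0, 0 and 1.41 in WT, and at L2C at 0.444, 0 and 0 in KO, against 0.731, 0 and 1.07 in WT. The WT mean at E2C was lower than at PN3 by a log2 difference of -2.0, given without a test, and 1 of 3 WT libraries at each 2-cell stage reached a level above 1.

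Stc2 (chromosome 11, 31357307 to 31370074, minus strand) was 1.23 ± 0.912 in KO oocytes and 3.38 ± 0.250 in WT oocytes (SD, n = 2 and 3), and 0.833 ± 0.246 in KO zygotes and 4.34 ± 0.423 in WT zygotes (n = 4 each). Its E2C levels were 2.39, 2.46 and 1.16 in KO, against 3.82, 10.4 and 2.10 in WT. At L2C it was at 0.115, 0.759 and 0.333 in KO, against 1.32, 0.229 and 1.57 in WT. The libraries overlapped at both stages, with differences of -0.92 at E2C (limma adjusted p = 0.796) and -0.50 at L2C (limma adjusted p = 0.596). Stc2 fell between E2C and L2C in WT by 1.51 (limma adjusted p = 0.0117), a call that was lost without WT L2C replicate 2 (-1.18), and in KO the change was -1.09 (limma adjusted p = 0.066).

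Sec14l3 (chromosome 11, 4064841 to 4077736, plus strand) was 1.37 ± 0.0765 in KO oocytes and 2.89 ± 0.329 in WT oocytes (SD, n = 2 and 3), and 0.828 ± 0.233 in KO zygotes and 2.44 ± 0.546 in WT zygotes (n = 4 each). At E2C it was at 0, 0.028 and 1.55 in KO, against 0.593, 0 and 1.13 in WT, and at L2C at 0, 0.239 and 0.112 in KO, against 0.259, 0.339 and 1.56 in WT. The libraries did not overlap at L2C, but 5 of the 6 were at 0.339 or below, they overlapped with FPKM as deposited, and the limma adjusted p was 0.517. Gm8817 (chromosome X, 167063194 to 167070380, minus strand) was 0.537 ± 0.166 in KO oocytes and 3.93 ± 0.768 in WT oocytes, and 0.642 ± 0.650 in KO zygotes and 4.20 ± 1.22 in WT zygotes. At E2C it was listed at 0, 0 and 0.669 in KO, against 6.50, 0 and 2.78 in WT, and at L2C at 0, 1.33 and 0.192 in KO, against 0, 2.50 and 0.858 in WT. Its WT libraries spanned 0 to 6.50 at E2C, and the difference there was -1.36 ± 0.64 (SE, limma adjusted p = 0.796).

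The move from E2C to L2C, when the embryo's own transcription widens, can be tested apart from the rule, since it is a change within a genotype. In KO 3 of 9 members rose (Morc2a, Fam83d and Sh2d3c) and 0 fell, where 28.0% of all genes rose and 14.2% fell, 42.1% in either direction. In WT 2 of 9 rose (Morc2a and Sh2d3c) and 1 fell (Stc2), where 35.3% of all genes rose and 19.1% fell, 54.5% in either direction. Sh2d3c rose by 1.32 in KO (limma adjusted p = 0.000354) and by 1.09 in WT (limma adjusted p = 0.000883). With 9 members these counts do not set the members apart from all genes. The median change of the 9 was 0.11 in KO and 0.13 in WT, against 0.18 in KO and 0.28 in WT over all genes. The changes of Dip2c, Runx2 and Cobl lay between -0.16 and 0.16 in both genotypes, and their KO means were lower at both stages.

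**Figure D3:**
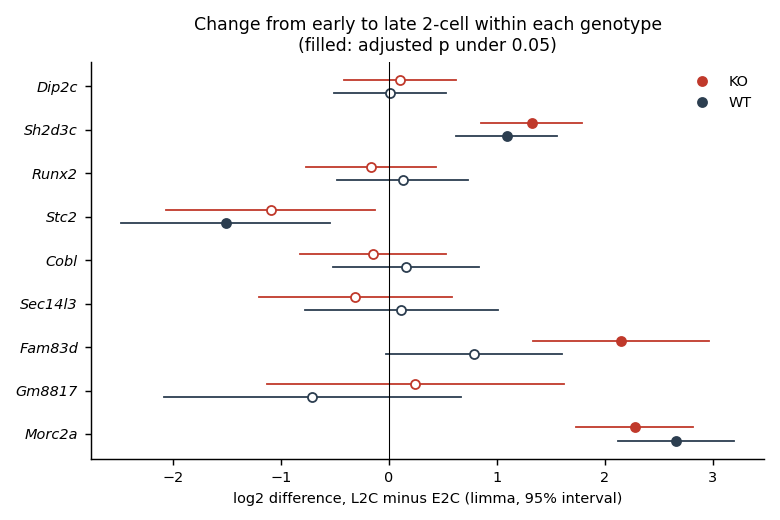
Change from E2C to L2C on log2(scaled FPKM + 1) (horizontal axis) of the 9 tested genes in KO (red) and WT (dark), with 95% intervals. Morc2a and Sh2d3c lie right of 0 in both genotypes, Fam83d rises by 2.15 in KO and by 0.79 in WT, and Stc2 lies left of 0.

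Paralogs and known partners of the members were read as a fixed list. Of 52 such genes in the tables, 33 were expressed and tested, and limma called 0 at E2C and 0 at L2C. Their median difference was 0.03 in oocytes, 0.00 in zygotes, -0.13 in early and -0.09 in late 2-cell embryos, against 0.00, 0.00, 0.05 and -0.05 over all expressed genes. KO libraries were below WT for 8 of the 33 in oocytes, 2 in zygotes, 5 in early and 3 in late 2-cell embryos, where 20.8%, 5.1%, 4.37% and 11.4% of all expressed genes were. The 2 at PN3 were also below at MII (2.09% of all genes were below at both), Sec14l1 (-0.30 and -0.40) and Setdb1 (-0.10 and -0.18). Dip2b, a paralog of Dip2c, was at 21.9 in KO and 18.2 in WT at MII and at 23.4 in KO and 24.8 in WT at E2C (means). Sec14l2, a paralog near Sec14l3 on chromosome 11, was apart in the other direction at MII (1.93 in KO and 1.07 in WT) and at E2C (2.17 in KO and 0.754 in WT, difference 0.95, limma adjusted p = 0.726). Sec14l4, the paralog adjacent to Sec14l3, was too low to count as expressed, with means of 0.328 in KO and 0.0720 in WT oocytes and 0.416 in KO and 0.160 in WT zygotes, where its KO libraries were all above WT at both stages. Reads from such paralogs can be shared, and the counting rule is not given. Dip2b, Sec14l1, Sec14l2, Sec14l4 and Setdb1 were named after their values were seen.

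The 3 annotated genes on each side of every member were read to see whether neighbours moved along. Of these 60 genes 40 were expressed and tested, and limma called 0 at E2C and 0 at L2C. KO libraries were below WT for 12 of the 40 in oocytes, 1 in zygotes, 2 in early and 8 in late 2-cell embryos, beside the same 20.8%, 5.1%, 4.37% and 11.4% of all expressed genes, and for 0 at both MII and PN3 (2.09%). They were above WT for 8 in oocytes, 3 in zygotes, 3 in early and 4 in late 2-cell embryos, beside 19.6%, 5.08%, 5.38% and 8.75%. Among the 40, the 1 gene above at both MII and PN3 was Zmynd11, which encodes a chromatin reader of methylated histone. It lies next to Dip2c on chromosome 13 (9684833 to 9765330, minus strand), with 15904 bases between the ends of these genes, which point towards each other. Its level was 9.90 and 9.31 in KO oocytes, against 6.58, 6.76 and 6.28 in WT oocytes. In zygotes it was at 13.7, 12.9, 11.2 and 10.1 in KO, against 8.53, 6.81, 7.54 and 5.32 in WT. Early 2-cell libraries were at 13.2, 13.3 and 14.8 in KO, against 9.16, 6.89 and 7.79 in WT. KO libraries lay above WT here, and the same held at L2C, at 17, 15.3 and 14.6 in KO, against 7.05, 9.18 and 9.19 in WT. The difference was 0.73 ± 0.19 (SE) at E2C (limma adjusted p = 0.541, unadjusted 0.0023) and 0.82 ± 0.19 at L2C (limma adjusted p = 0.207, unadjusted 0.000952). Zmynd11 was among 10 genes (0.0827%) above WT at all 4 stages, beside a gene among the 8 below at all 4. For this pair too, strain and genotype cannot be told apart.

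**Figure D4:**
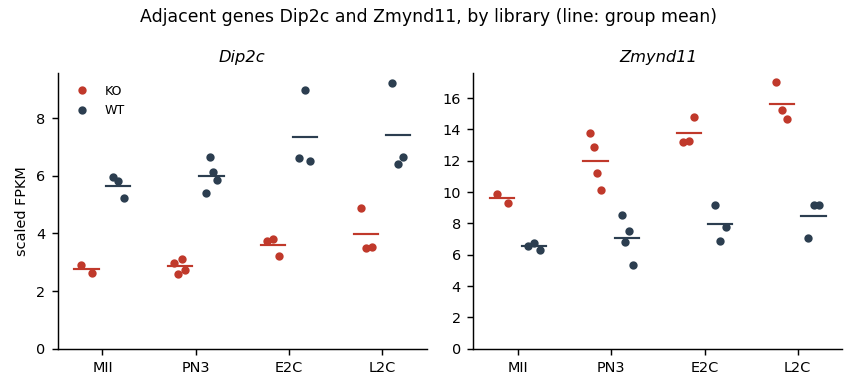
Scaled FPKM (vertical axis, linear) of the adjacent genes Dip2c and Zmynd11 in every KO (red) and WT (dark) library at the 4 stages, with a line at each group mean. KO points are below WT points for Dip2c and above them for Zmynd11 at every stage.

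Of the 10 members 4 lie on chromosome 11, which holds 7.99% of expressed genes and 5.76% of the placed genes that were below WT at both MII and PN3. Morc2a and Sec14l3 are 374363 bases apart there. Of 7 expressed genes between them, 4 had KO libraries below WT at MII, beside 20.8% of all expressed genes, and 0 at PN3, beside 5.1%. Pes1 (difference 0.13) and Gal3st1 (0.19), also among the 7, had KO libraries above WT at MII, beside 19.6% of all expressed genes. Dusp18, a phosphatase gene among the neighbours of Morc2a, was named after its values were seen. It averaged 3.50 in KO and 6.18 in WT at MII, where libraries were apart, and 2.38 in KO and 5.04 in WT at E2C, where they overlapped (difference -1.30, limma adjusted p = 0.778).

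Across the 25 libraries, the gene most like the members' mean standardised profile was Smarca4 itself (Pearson r = 0.95), followed by Rai1 (0.67), Polm (0.65), Sec14l1 (0.64) and Fras1 (0.64). This is a description over libraries that share stage and genotype, and 13 of the 25 are the MII and PN3 libraries used to choose the members. A likeness to the deleted gene was thus largely fixed by that choice. Among pairs of members the highest correlations were those of Morc2a with Sh2d3c (0.87), Morc2a with Fam83d (0.81) and Fam83d with Sh2d3c (0.80), the 3 members that rose in KO between E2C and L2C, followed by Dip2c with Runx2 (0.78). The lowest were those of Morc2a with Sec14l3 (-0.38) and with Stc2 (-0.36).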

How the data were processed

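RNA-seq values of 25 libraries were used. The authors deposited FPKM values for 24412 gene symbols. Tools listed in the submitters' processing notes are HISAT2, HTSeq, StringTie and Trim Galore 0.4.5, without roles, beside the builds GRCm38 and mm10. The labels' protocols describe a stranded, ribosomal RNA depleted, paired-end kit. The tool behind the FPKM, and its use of strand, are not given in the sources used here. Such values hold no counts, so depth and counting error are unknown, and values are relative to the other RNA of a library.

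Libraries were rescaled by median ratio over 6492 genes with FPKM of at least 1 in every library. Genes reaching a scaled FPKM of 1 in 3 or more of 25 libraries were called expressed. For tests, genes reaching 1 in 3 or more of the 12 libraries of the 2-cell stages were fitted as log2(scaled FPKM + 1) with limma 3.58.1 in R 4.3.3 (4 group means, 8 residual degrees of freedom, mean trend, robust prior), adjusted by Benjamini-Hochberg over all genes, with a call at an adjusted p under 0.05. Simulated data with 200 changed genes among 11662 tested this fit: at E2C 20% of calls were false and it recovered 82.4% of 4-fold changes, and at L2C 12.4% were false and it recovered 81.6%. Both false shares exceed the threshold of 0.05. Positions are those of GENCODE M21 for GRCm38.

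The members, the lists of relatives and neighbours and the choice of fit were made with earlier results of these data known. Named genes are the members, Smarca4, called relatives or neighbours, neighbours apart at both MII and PN3, and the 5 genes most like the members, with exceptions stated where they occur. Alternatives covered the filter, pseudocount, scaling, fit, library weights, replicate block and each library left out.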

Additional observations from a re-analysis of the deposited data

How the results depend on the processing

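Calls at the 2-cell stages depended on the fit. With all 25 libraries in 1 fit, over the 12086 expressed genes, limma called 214 genes at E2C (102 higher, 112 lower) and 1 member, Dip2c. At L2C it called 1879 genes (936 higher, 943 lower) and 5 members, of which Fam83d was higher and Dip2c, Runx2, Cobl and Morc2a lower. Runx2 passed the filter only through WT, so its call is no support. The difference of differences then gave 772 genes and 1 member, Fam83d. That fit lends the small spread of MII and PN3 to the 2-cell stages. With library weights, 3934 of the 11662 genes in the 12-library fit were called at L2C (1818 higher, 2116 lower). With them were 6 members, of which Fam83d was higher and 5 were lower, Runx2 again among them with the same limit. In the difference of differences 1099 genes were called. The E2C count of 1 gene became 0 with each stage fitted alone, without a filter and with a replicate block, and 2 with a pseudocount of 0.1 and with TPM. Whether replicate numbers pair the libraries was not settled. Libraries were compared as deviations from their group mean, so correlations near 0 do not mean that whole profiles were unlike. So compared, same-numbered KO and WT libraries correlated at 0.066, 0.0807 and 0.16 at E2C, and at 0.128, -0.182 and 0.216 at L2C. At PN3 they correlated at 0.0122, 0.372, 0.114 and 0.428, and at MII at -0.119 and 0.0446. The 2 KO libraries at MII mirror each other around their mean, so the MII values are not independent. At E2C each KO library correlated best with its own number, a hint from the data and not the design.

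Leaving out single libraries gave 0 to 2 genes and 0 members at E2C, 0 to 1367 genes and 0 to 2 members at L2C, and 0 to 477 genes and 0 members in the difference of differences, the highest L2C counts without WT L2C replicate 3. Within KO, 3697 to 5480 genes and 3 to 4 members changed from E2C to L2C, and within WT 5381 to 6481 genes and 2 to 4 members. Members with KO below WT numbered 3 to 7 at E2C (7 without WT E2C replicate 3), while 6.32% to 10.6% of all genes were so ordered, and 5 to 7 at L2C, while 13.9% to 29.6% were. Leaving out both E2C replicates 3, chosen after seeing the data, also gave 7, with 16.3% of all genes. At E2C 2 members were below WT with FPKM as deposited (3.43% of all genes) and with TPM (3.64%), and the same number at all 4 stages. At L2C 5 were below with each scaling, Morc2a taking the place of Sec14l3 with FPKM as deposited. Of the members' differences at MII and PN3 under each setting, 157 moved by less than the spread between replicates and 33 by more, mostly with TPM or a pseudocount of 0.1, and none changed sign. Emx2 was not tested in the 12-library fit. The cause of these dependences was not tested. Depth is unknown, which limits what can be said of members near 0.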

Other observations

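Besides Smarca4, Dip2c, Sh2d3c and Runx2, 4 genes had KO libraries below WT at all 4 stages, named here after their values were seen. Rnf4, a SUMO-targeted ubiquitin ligase, averaged 49.1 in KO and 59.1 in WT at MII and 133 in KO and 149 in WT at L2C. Tmem57 averaged 41.0 in KO and 50.0 in WT at MII and 24.8 in KO and 31.5 in WT at L2C. Ap1g1, a clathrin adaptor subunit, differed by -0.13 (log2) at MII and -0.60 at L2C, and Sde2 by -0.20 at MII and -0.83 at E2C.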
